A study of Homo sapiens with 75 samples.

Results

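GRANTA-519 is an established line grown from mantle cell lymphoma, a cancer of B cells in which a translocation usually places the cyclin D1 gene CCND1 under an immunoglobulin enhancer. Its baseline transcript profile was taken from the arrays of cells given PBS and no antibody: 3 GRANTA-519 arrays were compared with the equally weighted mean of 12 PBS arrays of Z138, HBL-2, JEKO-1 and REC-1, 3 per line, out of 75 arrays in all. All 5 lines are mantle cell lymphoma lines kept in RPMI medium with glutamine and serum. The other 60 arrays hold an isotype control antibody, GA101 (obinutuzumab), rituximab, or GA101 with rituximab. GA101 and rituximab, both against CD20, were given at 10 µg/ml each, and no dose is listed for the isotype control. The labels give no treatment time and do not state whether replicates came from different cultures, so the p-values rest on array-to-array spread that could be technical. Each group is 1 line, which limits it as a model of the disease. In bulk RNA fewer cells with a transcript and less transcript per cell cannot be told apart.

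GRANTA-519 is known as a line that carries Epstein-Barr virus (EBV). In latently infected B cells the viral protein LMP1 acts like a constantly active CD40 receptor and feeds NF-kB, a transcription factor that switches on chemokines, adhesion molecules and survival genes. Mantle cell lymphoma is also known for losses around CDKN2A and ATM, gains around BCL2 and active Notch or B cell receptor signalling. Viral transcripts were not analysed here.

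The values are array intensities on a linear scale. The median intensity of a GRANTA-519 array was 11.17 to 14.09, against 11.36 to 17.42 in the other lines, and 6.23% to 8.86% of its probe sets were at 0, against 4.32% to 7.78%. The 3'/5' ratio (log2) of the control probe sets reached 0.06 for GAPDH in GRANTA-519, against 0.20 elsewhere, and lay at 0.66 to 0.84 for actin, against 0.62 to 1.32. Over the 41091 probe sets with 1 gene symbol, before any filter, GRANTA-519 arrays correlated with each other at r of at least 0.9386. With any array of another line they correlated at 0.8859 or less.

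The label was checked against B cell markers, and GRANTA-519 expressed them. Of 11 tested, 5 were higher than the mean of the other lines, 4 lower and 2 not called, where 59.7% of all 13456 genes were called (limma, Benjamini-Hochberg adjusted p under 0.05). Summed over these 11 genes the intensity was 15870 to 17120 per array, inside the range of 9487 to 19850 of the other lines. MS4A1, the gene of the antibody target CD20, stood at 6161, 6465 and 6257 in GRANTA-519 and at 4225 to 6434 (median 5375) in the other 12 arrays. Its difference was 0.24 ± 0.0447 on the log2 scale (SE; limma, adjusted p = 0.00021), and the groups overlapped. CD22, an inhibitory coreceptor of the B cell receptor, stood at 946, 817 and 854 against 15.2 to 222 (median 64.8), with no overlap and a difference of 3.67 ± 0.165 (limma, adjusted p = 9.6e-12). The kinase BLK (1.55 ± 0.154) and the coactivator POU2AF1 (1.05 ± 0.0377) were also above each other line, BLK not so in the isotype arm. CD79B, a signalling chain of the B cell receptor, was lower than the mean of the others, at -0.97 ± 0.0699, with Z138 the nearest line (0.19, adjusted p = 0.075).

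Among mantle cell lymphoma markers the defining CCND1 was at 5120, 5488 and 4715 and the transcription factor SOX11 at 276, 293 and 423. The other 12 arrays held 791 to 6174 (median 5419) for CCND1 and 101 to 792 (median 410) for SOX11. In the probe set used for each gene, GRANTA-519 thus lay among the other lines. The difference was 0.41 ± 0.17 for CCND1 (limma, adjusted p = 0.056) and 0.01 ± 0.151 for SOX11 (adjusted p = 0.95). CCND1 passed in several other fits: the mean of its probe sets gave 2.13 and quantile normalization 0.46 (adjusted p = 0.045), and the value was 0.32 (adjusted p = 0.0027) without HBL-2 replicate 2 and 0.48 (adjusted p = 0.00061) without HBL-2 replicate 3. In the CCND1 probe set used, the positive value came from HBL-2, with a mean of 1321. Without this line the difference turned to -0.14 (limma, adjusted p = 0.02) and that of SOX11 to -0.45 (adjusted p = 0.021). The 2.13 is from the mean of both CCND1 probe sets, so the other one had a larger difference, and its values are not given here. Of 15 markers on this list 5 were higher, 5 lower and 5 not called (all genes: 30.8% and 28.9%). FCER2, the low-affinity IgE receptor CD23, stood at 116, 102 and 110 in GRANTA-519 and at 13.6 or less elsewhere, and CD200, an inhibitory surface ligand, at 105, 103 and 96.7 against 13.4 or less. Both passed the filter on low values only through GRANTA-519. HDGFL3 was higher by 1.85 ± 0.0649 and the germinal centre repressor BCL6 lower by -1.16 ± 0.15 (limma, adjusted p = 4.7e-13 and 4.2e-06). BCL6 was dim in all 5 lines, with a mean of 22.4 in GRANTA-519 against 34.5 to 60.6, where the filter level was 15.4. It was specific in the isotype arm but not in the 3 antibody arms.

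Over all genes, 4145 (30.8%) were higher in GRANTA-519 than the mean of the other 4 lines and 3884 (28.9%) lower. A gene was called line-specific where it also passed, in the same direction, against each single other line. By this rule 2543 genes were specific to GRANTA-519 (18.9%), 1304 higher (9.69%) and 1239 lower (9.21%). The same count for each other line, from the same 15 arrays, was 2312 in REC-1, 1928 in Z138, 1791 in JEKO-1 and 1454 in HBL-2. In 1263 of the higher and 1107 of the lower genes the 3 GRANTA-519 arrays did not overlap the other 12, where 12.4% of all genes tested lay above and 9.11% below without overlap. The log2 difference reached 1 in 733 higher and 714 lower genes and 3 in 211 and 126. Of the higher genes 152 had passed the filter only through GRANTA-519, and for such genes a difference was built in.

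The 1304 higher genes include the 152 that had passed the filter only through GRANTA-519. The isotype control arrays share no array with the PBS arrays, but the filter and probe sets chosen in the PBS arrays were kept. There 1056 of the 1304 higher genes and 986 of the 1239 lower genes were again specific to GRANTA-519, in a fit of its own (80.3% of the genes specific in PBS, and 82.5% of those specific in the isotype arm, where 9.08% of all genes were specific higher and 9.3% lower). Of the 2543 genes 6 had the opposite sign, and 2494 were called in the same direction against the mean of the other lines. In the 3 antibody arms 78.4% to 80.1% were again specific, and 856 higher and 781 lower genes were specific in all 5 arms. The difference between GRANTA-519 and the other lines changed from PBS to isotype in 28 of 13456 genes (0.208%) by limma's interaction test, and 1081 had an unadjusted p under 0.05.

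**Figure D1:**
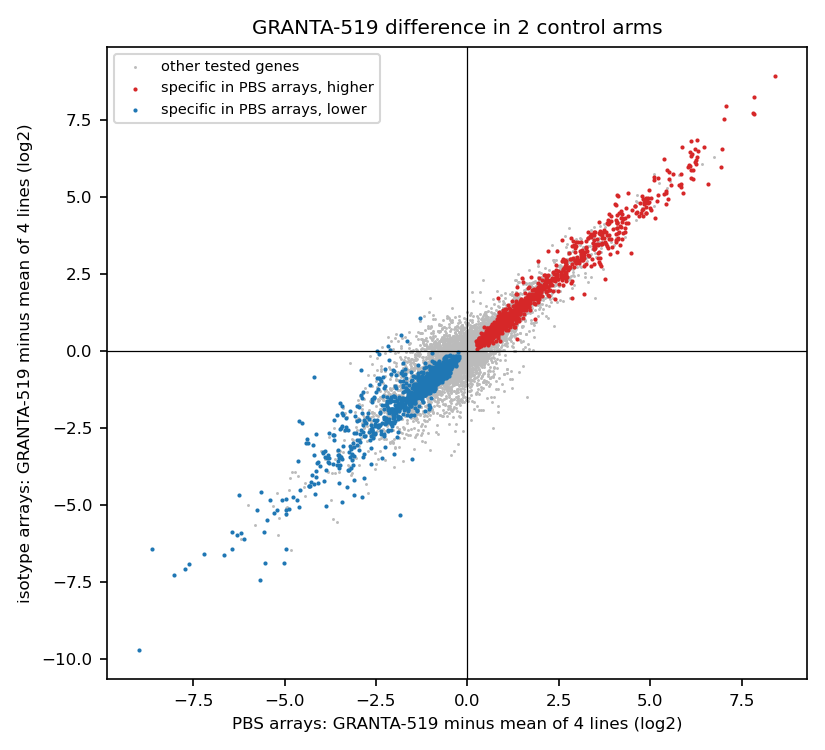
Each point is 1 tested gene, with the log2 difference between GRANTA-519 and the mean of the other 4 lines in the PBS arrays on the x axis and in the isotype control arrays on the y axis. Red and blue points are the 1304 higher and 1239 lower line-specific genes of the PBS arrays, and 2494 of these 2543 were called in the same direction in the isotype arrays.

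The 14 line-specific genes farthest above every other line were PLS3, DSG2, MGST1, DPPA4, CLIC2, PDGFC, F13A1, ADGRA3, SVIP, CPNE8, COBL, SLAMF1, TMEM52B and NETO1. All 14 passed the filter only through GRANTA-519, so their number carries no weight, and their values are a description. With no filter 13 stayed specific, while ADGRA3, for which a brighter probe set then stood, was at 1.14 (limma, adjusted p = 0.16). The other lines were below the filter level of 15.4 for each of them, and a fold against that level is a lower bound.

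PLS3 encodes plastin 3, an actin-bundling protein. It stood at 824, 802 and 825 in GRANTA-519 and at 0 to 5.83 (median 2.54) in the other 12 arrays, at least 53.2-fold above the nearest line. COBL, an actin nucleator, stood at 174, 189 and 191 against 0.95 to 3.99 (median 2.02). The groups were far apart in both genes. DSG2, the desmosomal cadherin desmoglein 2, had 752, 673 and 650 against 0 to 7.86 (median 5.9), a difference of 7.08 ± 0.458. MGST1, a membrane-bound glutathione S-transferase, had 1419, 1502 and 1340 against 5.97 to 18.9 (median 11.8), at least 92.5-fold above the nearest line. Its 3 other probe sets past the filter gave the same sign.

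DPPA4, a nuclear protein known from pluripotent cells, stood at 374, 376 and 406 in GRANTA-519 and at 8.23 or less in every other PBS array. Of the secreted and plasma proteins, the growth factor PDGFC stood at 260, 268 and 259 against at most 9.22, and F13A1, the catalytic subunit of clotting factor XIII, at 782, 668 and 632 against at most 17.9. SLAMF1, a lymphocyte adhesion coreceptor, stood at 433, 459 and 416 against 0.99 to 14.3 (median 6.84). SVIP, which binds the ATPase VCP, stood at 588, 588 and 669 against at most 13.3. CLIC2, CPNE8, TMEM52B and NETO1, the last known as an auxiliary subunit of neuronal glutamate receptors, had GRANTA-519 means of 136 to 282, and no PBS array of another line was above 11. All 14 were specific in the 4 other arms as well, and in each the 12 GRANTA-519 arrays of those arms lay above the 48 arrays of the other lines.

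**Figure D2:**
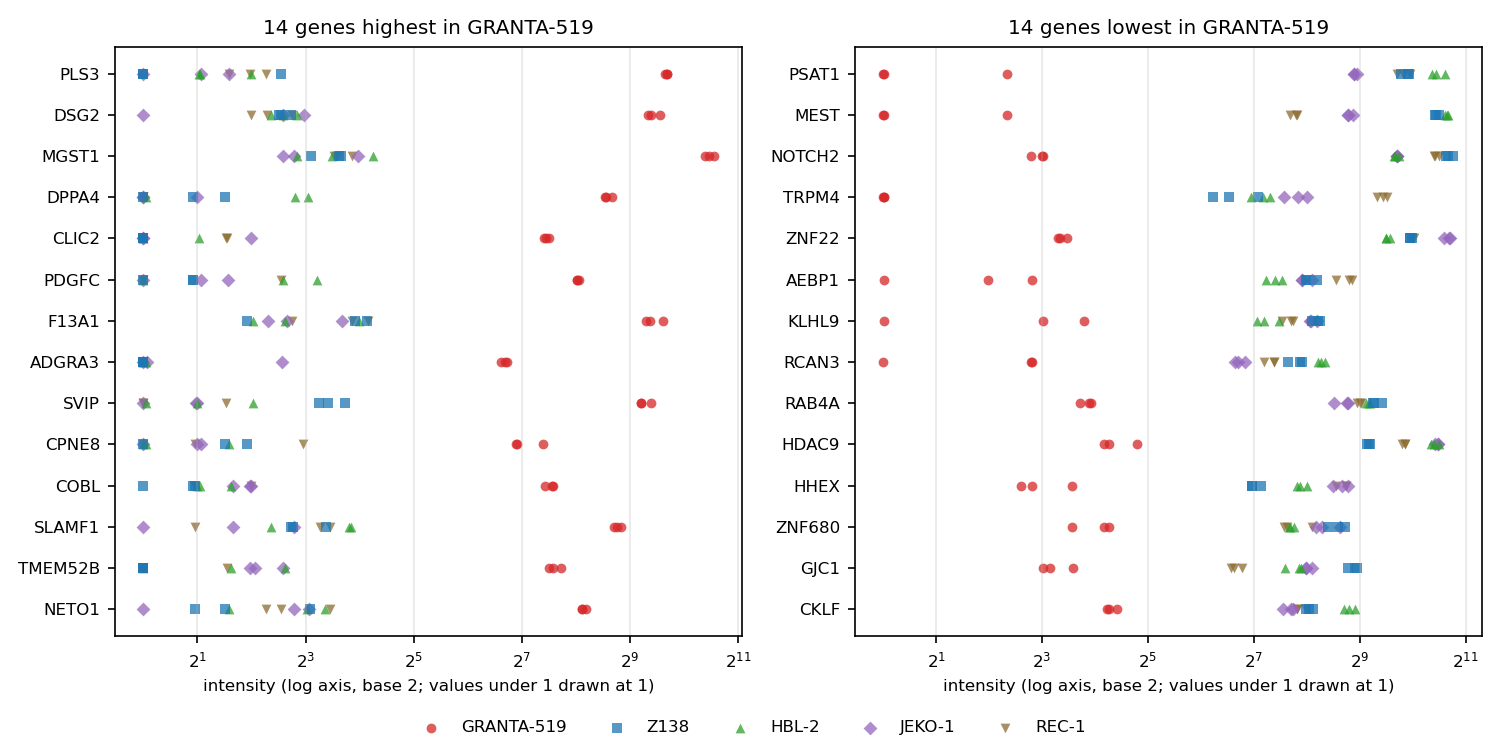
Intensity on a log axis (base 2, values under 1 drawn at 1) of the 14 highest and 14 lowest line-specific genes in the 15 PBS arrays, 1 symbol per array and colour by line. The 3 GRANTA-519 arrays lie to the right of all others in the first panel and to the left in the second, with PLS3 at 802 to 825 against at most 5.83 and NOTCH2 at 6.9 to 8.12 against at least 805.

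The 14 genes farthest below every other line were PSAT1, MEST, NOTCH2, TRPM4, ZNF22, AEBP1, KLHL9, RCAN3, RAB4A, HDAC9, HHEX, ZNF680, GJC1 and CKLF. In 11 of them GRANTA-519 was below the filter level of 15.4, and all 14 passed the filter through other lines and stayed specific with no filter. PSAT1, the aminotransferase of serine synthesis, stood at 5.08, 0 and 1.01 in GRANTA-519 and at 473 to 1561 (median 932) elsewhere. The nearest line was at least 31.3-fold higher. MEST, an imprinted gene, stood at 5.08, 0.99 and 1.01 against 206 to 1621 (median 917). The cation channel TRPM4 stood at 1.01, 0.99 and 1.01 against 74.8 to 727 (median 174). None of these 3 genes overlapped.

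ZNF22 was at 10.2, 9.86 and 11.1 against 722 to 1671 (median 1011), a difference of -6.67 ± 0.0496 (limma, adjusted p = 1.3e-21). HDAC9, a class IIa histone deacetylase, was at 19.3, 27.6 and 18.1 against 564 to 1444 (median 1119). It was 26.6-fold below the nearest line, and its 3 other probe sets had the same sign. HHEX, a homeobox factor of blood cell development, was at 6.09, 11.8 and 7.05 against 125 to 439 (median 310). RAB4A, a GTPase of endosomal recycling, was at 15.2, 14.8 and 13.1 against 367 to 683 (median 540). RCAN3, a calcineurin regulator, the connexin gene GJC1 and the chemokine-like factor CKLF had fitted differences of -5.66, -4.58 and -3.80. Over the 14 genes all 17 other probe sets past the filter had the same sign, and all 14 genes were specific and without overlap in the 4 other arms.

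Genes known to be induced in EBV latency had the highest median difference of the lists described. Of 35 tested members 28 were higher, 1 lower and 6 not called (all genes: 30.8% and 28.9%), with a median difference of 1.73 against -0.02 over all genes. Of these, 18 were above each single other line (51.4%, background 9.69%) and 0 below each. Of the 18, FCER2, LTA and SLAMF1 had passed the filter only through GRANTA-519. With no filter 18 of 36 members were specific (50%), against 6.15% of all genes. The list was chosen with earlier results of these data known. It shares members with other lists described here, such as those of NF-kB, chemokines, adhesion, costimulation, death receptors and complement regulators. Their counts are therefore not independent of this one.

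**Figure D3:**
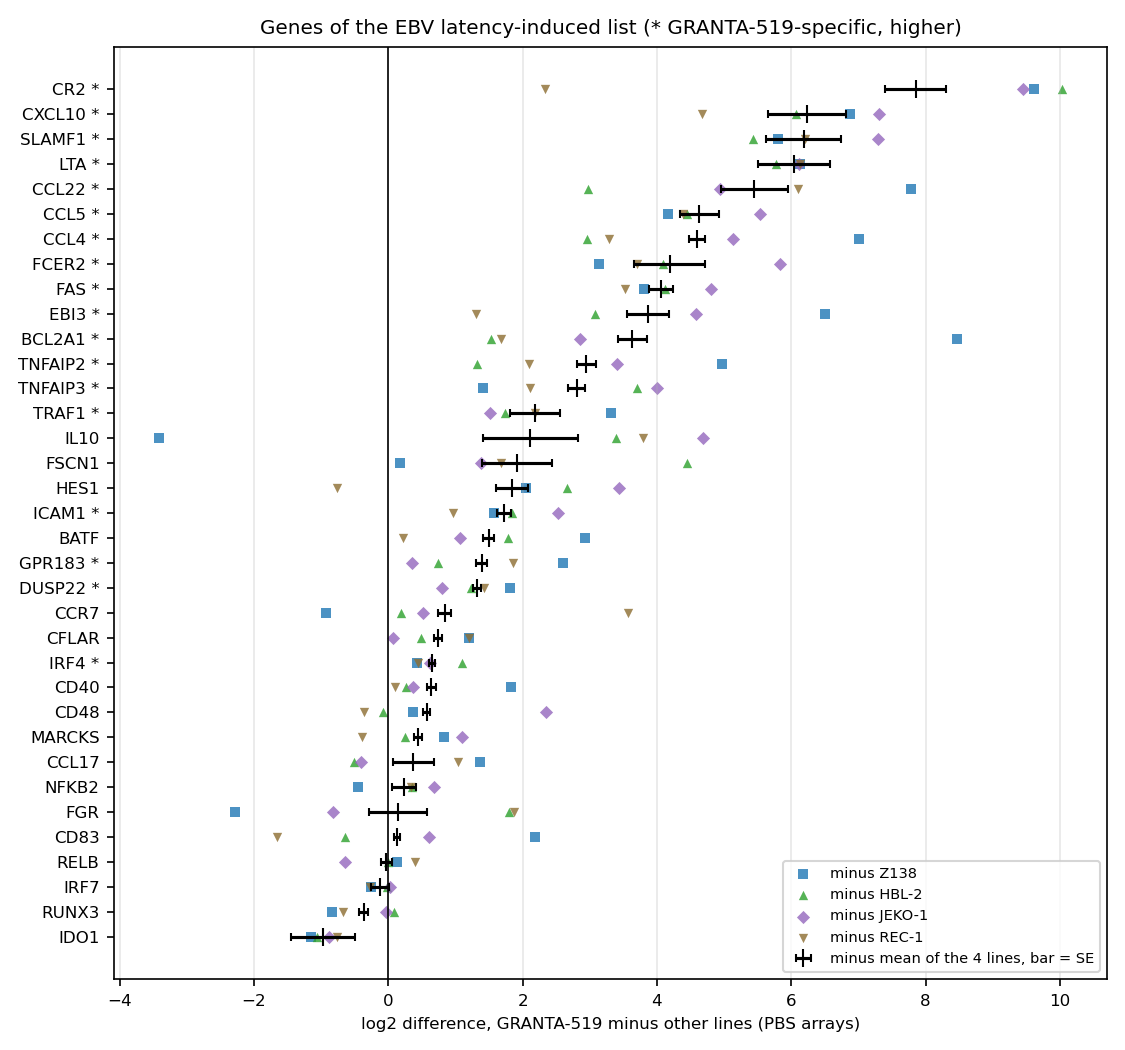
Log2 difference between GRANTA-519 and the other lines in the PBS arrays for the 35 tested genes of the EBV latency-induced list. Coloured symbols are the differences to single lines, black marks the difference to their mean with its SE, and an asterisk marks the 18 line-specific genes, from CR2 at 7.85 to IRF4 at 0.65.

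Sequence before the start of these genes was set beside the expression values, since NF-kB binding motifs lie in the promoters of several of them. RefSeq promoters (GRCh38.p14) were found for 16 of the 18 specific members, and in 5 of the 16 (31.2%) the 250 bases before the start held GGGANTTCC or GGNNTTTCC on either strand. These motifs can overlap, and 6.67% of all 35116 promoters in the table held one in the same window. That share is over all promoters, without keeping 1 per gene as was done for the members. Since the list holds genes known for such motifs, a share above that one was in part built in. The members of the list that were not specific were not counted. The 5 promoters are shown to let the motifs be seen next to genes above every other line, with the matches in capitals and each sequence 5' to 3' on the strand of its gene. They were at chr4:76023498-76023747 (minus strand) for CXCL10, chr6:137867009-137867258 (plus) for TNFAIP3, chr19:10270870-10271119 (plus) for ICAM1, chr19:4229273-4229522 (plus) for EBI3 and chr14:103123211-103123460 (plus) for TNFAIP2.
CXCL10: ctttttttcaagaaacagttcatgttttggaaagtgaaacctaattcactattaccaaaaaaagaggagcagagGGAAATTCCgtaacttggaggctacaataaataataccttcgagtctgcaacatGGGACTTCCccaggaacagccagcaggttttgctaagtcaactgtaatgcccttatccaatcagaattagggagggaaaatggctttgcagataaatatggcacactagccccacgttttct
TNFAIP3: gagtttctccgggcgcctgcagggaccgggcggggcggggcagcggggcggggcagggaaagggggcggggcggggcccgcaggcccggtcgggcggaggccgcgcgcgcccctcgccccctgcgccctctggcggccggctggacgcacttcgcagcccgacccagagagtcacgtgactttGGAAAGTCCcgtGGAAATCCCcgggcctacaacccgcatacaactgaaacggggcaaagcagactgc
ICAM1: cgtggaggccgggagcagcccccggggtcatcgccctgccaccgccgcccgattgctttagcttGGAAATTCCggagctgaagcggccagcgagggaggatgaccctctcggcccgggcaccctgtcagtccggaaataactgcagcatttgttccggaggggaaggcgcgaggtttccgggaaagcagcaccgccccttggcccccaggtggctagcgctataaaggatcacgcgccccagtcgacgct
EBI3: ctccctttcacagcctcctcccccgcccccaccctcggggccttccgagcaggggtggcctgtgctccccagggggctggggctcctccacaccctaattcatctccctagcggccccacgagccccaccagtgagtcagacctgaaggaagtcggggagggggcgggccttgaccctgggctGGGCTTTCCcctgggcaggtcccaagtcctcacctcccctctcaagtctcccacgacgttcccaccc
TNFAIP2: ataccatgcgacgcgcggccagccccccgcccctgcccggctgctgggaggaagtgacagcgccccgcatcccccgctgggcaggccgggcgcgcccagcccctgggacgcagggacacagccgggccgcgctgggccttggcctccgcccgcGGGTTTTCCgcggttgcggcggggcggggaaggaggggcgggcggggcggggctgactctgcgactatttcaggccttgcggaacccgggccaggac
The matches began 176 and 122 bases before the start in CXCL10, 67 and 55 in TNFAIP3, 186 in ICAM1, 67 in EBI3 and 97 in TNFAIP2. A match is a description of letters and was not tested. Of the highest named genes 1 of 11 promoters held a match (9.09%, CLIC2), and of the lowest 1 of 12 (8.33%, NOTCH2).

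CXCL10, a chemokine for activated T cells, stood at 946, 927 and 909 in GRANTA-519 and at 1.89 to 41.9 (median 14.3) elsewhere, 25.4-fold above the nearest line (6.23 ± 0.585; limma, adjusted p = 2.3e-07). TNFAIP3, the NF-kB inhibitor A20, stood at 1229, 1249 and 1674 against 65.6 to 565 (median 203). ICAM1, an adhesion ligand, stood at 270, 269 and 235 against 37.8 to 144 (median 78.2). No arrays of GRANTA-519 and the other lines overlapped in these 3 genes. EBI3, a cytokine subunit first found in EBV-infected B cells, had a mean of 380, against 154 in REC-1 as the nearest line and 4.79 to 45.6 in the other three. The TNF-induced gene TNFAIP2 had 230 against 7.33 to 91.4. Both are named for their promoters, after their values were seen.

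CR2, the complement receptor CD21 through which EBV enters B cells, stood at 1608, 1416 and 1535 against 0 to 312 (median 2.52). Only REC-1 of the other lines had a mean above the filter level, 302, and the gap to it was 2.33. The T cell attractant CCL22 stood at 227, 222 and 213 against 0.95 to 76.6 (median 4.62). LTA, the cytokine lymphotoxin alpha, stood at 86.3, 56.2 and 71.5 against 0.95 to 2.05, and passed the filter only through GRANTA-519. CCL5, another chemokine, stood at 850, 810 and 757 against 6.96 to 51.5 (median 38.4), 17.9-fold above the nearest line. CCL4, whose probe sets may not tell near-identical gene copies apart, had a difference of 4.60. The members not called or lower included RELB (-0.03, adjusted p = 0.79), NFKB2 (0.23, adjusted p = 0.29) and RUNX3, which was lower by -0.37 (adjusted p = 0.00012).

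Of 24 subunits and regulators of NF-kB 12 were higher, 3 lower and 9 not called, with a median of 0.26 (all genes: 30.8% higher and 28.9% lower, median -0.02). The adaptor TRAF1 stood at 71.1, 72 and 56.4 against 2.84 to 31.5 (median 15.2), with no overlap. TNIP1, a partner of A20, had a difference of 1.42, but its other probe set had the opposite sign and the mean of both did not pass (0.42, adjusted p = 0.068). CHUK, the kinase IKK alpha, stood at 206, 249 and 210 against 389 to 582 (median 479), and the Toll-like receptor adaptor MYD88 at 385, 361 and 354 against 694 to 1055 (median 832). Both lay below all 12 other arrays, with differences of -1.11 ± 0.0678 and -1.20 ± 0.0567 (limma, adjusted p = 4.1e-10 and 1.7e-11).

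Chemokines, cytokines and their receptors gave 21 higher, 4 lower and 8 not called of 33, where 30.8% and 28.9% of all genes were higher and lower. Of these, 11 were specific higher and 2 specific lower (background 9.69% and 9.21%). Members that are also on the EBV list, such as CCL5, CCL22, CXCL10 and LTA, were counted again here. Of the 33 tested, 5 had passed the filter only through GRANTA-519. CCR10, a receptor of skin-homing lymphocytes, was among those 5, at 97.5, 86.8 and 99.7 against at most 14.6. The 2 lower members, named because there were so few, were CXCR4, the receptor of CXCL12, and CXCR5, which leads B cells to follicles. CXCR4 had a mean of 678 in GRANTA-519 against 1003 in REC-1 and 3665 to 4925 in the other three lines (-2.17 ± 0.0553; limma, adjusted p = 9e-15). CXCR5 was at 11, below the filter level, against 28.1 to 611.

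In adhesion and homing 16 of 22 genes were higher and 3 lower (all genes: 30.8% and 28.9%), with a median of 1.42, and VCAM1 among them had passed the filter only through GRANTA-519. The gene CD58, for the ligand of CD2 on T cells, stood at 760, 758 and 793 against 120 to 331 (median 136), and CD99, a surface protein of leukocyte migration, at 1973, 1921 and 1827 against 337 to 706 (median 450). P2RY8, a receptor that keeps B cells in the follicle, was higher by 1.71 ± 0.0716. All 3 genes were without overlap. Of 26 genes of costimulation and the TNF family 18 were higher (30.8% of all genes) and 2 lower (28.9%), and 6 were specific and higher (background 9.69%). CD5, SLAMF1 and SLAMF7 of this list had passed the filter only through GRANTA-519, so their higher values were built in. CD274, the checkpoint ligand PD-L1, stood at 257, 262 and 280 against 7.71 to 44.5 (median 19.8), 7.03-fold above the nearest line. TNFSF4, the OX40 ligand, stood at 243, 227 and 221 against 4.74 to 76.8 (median 37.1), and SLAMF7 at 188, 193 and 177 against at most 16.9. CD80, a ligand of CD28, was higher by 1.31 ± 0.175.

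**Figure D4:**
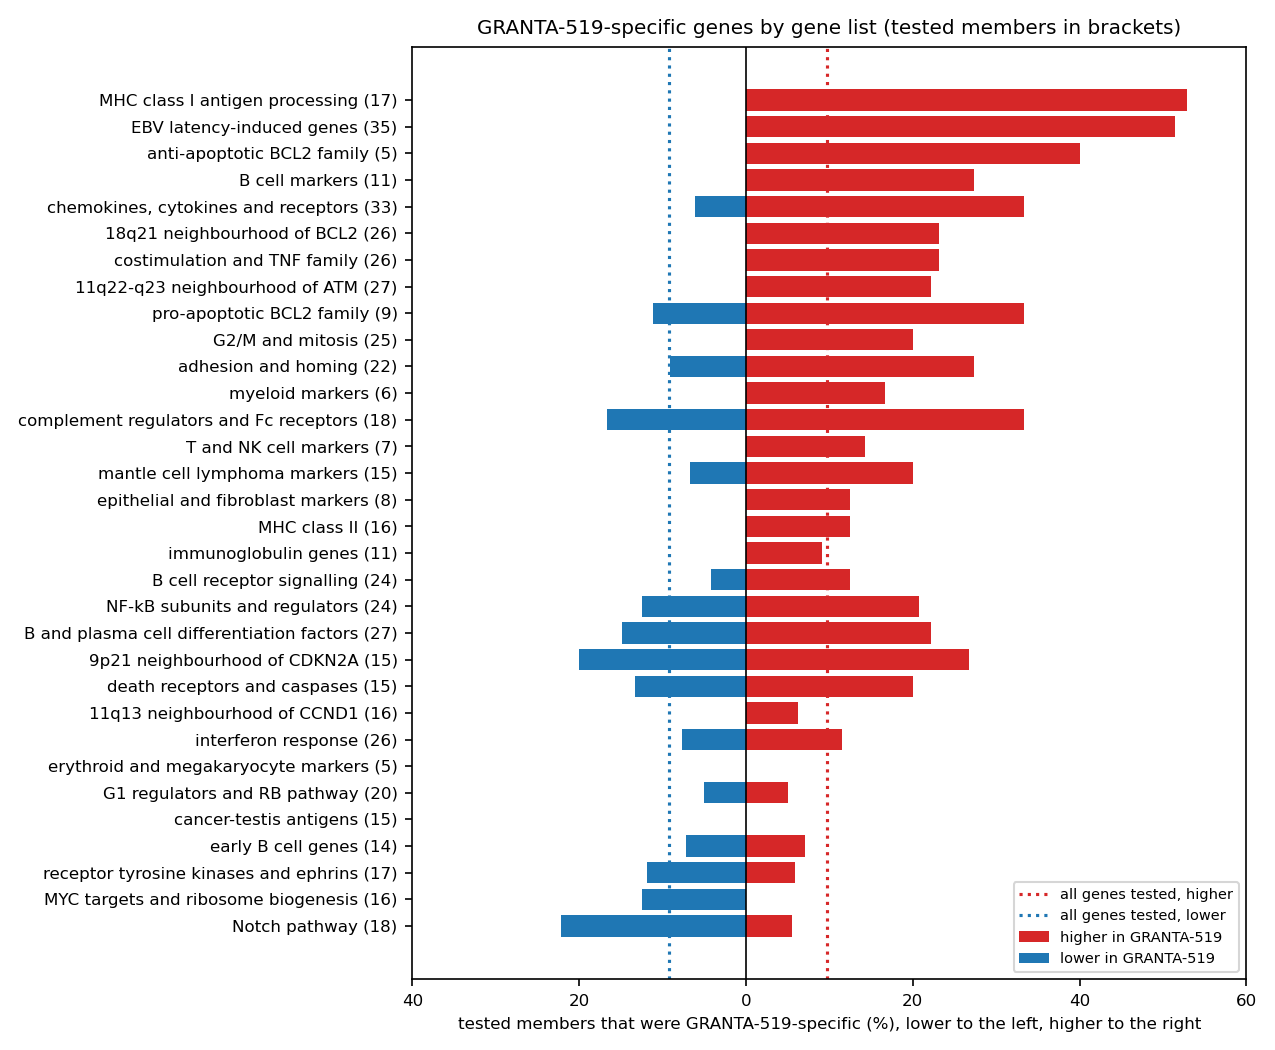
Share of the tested members of each gene list shown that were specific to GRANTA-519, higher in red to the right and lower in blue to the left, with the number tested in brackets. Lists can share members. Dotted lines are the shares over all genes, 9.69% higher and 9.21% lower, and the longest bars to the right are those of MHC class I antigen processing (52.9%) and the EBV latency-induced genes (51.4%).

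Genes that load and present antigen on MHC class I were mostly higher in GRANTA-519. Of 17 tested genes 15 were higher and 2 lower (all genes: 30.8% and 28.9%), with a median of 1.06, and 9 were above each other line (52.9%, background 9.69%). The peptide transporter genes TAP1 and TAP2 stood at 500, 517 and 424 and at 601, 546 and 572, against 77.6 to 319 (median 167) and 73.6 to 374 (median 165). The nonclassical class I gene HLA-E stood at 2311, 2501 and 2627 against 57.5 to 974 (median 814), and HLA-F at 2330, 2308 and 2290 against 42.4 to 970 (median 727). ERAP2, which trims peptides for class I, was at 1383, 1045 and 1195 against 78.7 to 864 (median 315). GRANTA-519 overlapped no other line in these 5 genes. HLA genes are polymorphic and alike in sequence, so probe sets may read alleles and copies unequally, and their levels are uncertain.

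MHC class II genes were 12 higher, 3 lower and 1 not called of 16 (all genes: 30.8% higher and 28.9% lower). REC-1 was near 0 for several of them. HLA-DRA stood at 5131, 5178 and 4855 in GRANTA-519 while its mean was 4.88 in REC-1 and 4598 to 6542 in the other three lines. Against the mean of the 4 lines it was at 2.60 ± 0.515, and without REC-1 at -0.13 (limma, adjusted p = 0.051). HLA-DPA1 and HLA-DRB1 were called against the mean but not against Z138 (-0.14 and -0.19; adjusted p = 0.42 and 0.23). HLA-DRB1 did not pass against JEKO-1 either (0.23; limma, adjusted p = 0.14), and its mean in REC-1 was 18.55. HLA-DQA1 stood at 1563, 1645 and 1381 against 0 to 955 (median 361), without overlap. It passed narrowly against Z138 and HBL-2 (adjusted p = 0.049 and 0.048). The list then had 2 specific members, and 1 without any single array of GRANTA-519, Z138 or HBL-2, or without JEKO-1 replicate 2 or REC-1 replicate 3. The reservation on alleles holds here too.

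Interferon-response genes were mixed, with 13 higher, 4 lower and 9 not called of 26 (all genes: 30.8% and 28.9%), and 3 specific higher and 2 specific lower members (11.5% and 7.69%, background 9.69% and 9.21%). IFIT3, an antiviral protein, stood at 2139, 1944 and 1718 against 9.44 to 166 (median 93.8), 11.8-fold above the nearest line, and IFIT1 at 81.2, 80.9 and 85.6 against 0 to 29.2 (median 5.88). MX1, an antiviral GTPase, went the other way, at 13.2, 26.6 and 11.1 against 81.5 to 283 (median 133). IFI6 was at 2.03, 0.99 and 6.04 against 14.7 to 75.1 (median 47.7). These 4 genes were without overlap, in both directions. EPSTI1 was higher by 1.39 ± 0.113.

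BCL2, the antiapoptotic gene at 18q21, stood at 2875, 2884 and 2775 in GRANTA-519 and at 582 to 2244 (median 851) elsewhere. The difference was 1.57 ± 0.0618 (limma, adjusted p = 1.9e-12), and the nearest line was HBL-2 with a mean of 2108. The 12 GRANTA-519 arrays of the other arms gave 2621 to 3166, and the 48 of the other lines there reached 3455. BCL2A1, a further survival gene of the family, stood at 1961, 1725 and 1729 against 2.92 to 676 (median 401), 2.9-fold above the nearest line. Of 5 antiapoptotic family members tested 4 were higher (30.8% of all genes) and 1, MCL1, lower by -0.44 ± 0.0616 (adjusted p = 9e-06). BCL2L1 was higher by 0.49 (adjusted p = 0.0094), a call lost without GRANTA-519 replicate 1 (0.25, adjusted p = 0.15) and with the mean of its probe sets (0.52, adjusted p = 0.15). Of 26 tested genes around BCL2 on 18q21 14 were higher and 7 lower (all genes: 30.8% and 28.9%), and 6 were specific and higher (23.1%, background 9.69%), among them MC4R, which had passed the filter only through GRANTA-519. KDSR next to BCL2 stood at 1056, 969 and 1011 against 204 to 607 (median 336), VPS4B at 2655, 2344 and 2452 against 650 to 2209 (median 1017), and MBD2 had a difference of 0.99.

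Of 15 death receptor and caspase genes 7 were higher and 5 lower, and of 9 proapoptotic BCL2 family members 5 were higher and 2 lower, where 30.8% of all genes were higher and 28.9% lower. BIK stood at 790, 782 and 712 against 4.98 to 193 (median 98.4), BID at 1064, 1078 and 978 against 371 to 737 (median 545), and BAX at 377, 335 and 374 against 89.2 to 294 (median 203). All 3 were without overlap. HRK was lower by -1.74 ± 0.217, and PMAIP1 was higher than the mean by 1.15 but was not specific, with 3694 against 3458 in Z138. FAS, the death receptor CD95, stood at 678, 657 and 677 against 14.9 to 59.8 (median 44.5), 11.6-fold above the nearest line with all 4 other probe sets of the same sign. TNFRSF10B, a receptor for TRAIL, stood at 915, 949 and 1006 against 95.5 to 249 (median 225), with 2 of 3 other probe sets of the same sign. Of the downstream genes APAF1 was higher by 1.41 ± 0.101, while the caspase gene CASP9 was lower by -1.47 ± 0.114, at 45.7, 67.1 and 71.5 against 105 to 222 (median 176).

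The region of CDKN2A on 9p21 was split. CDKN2A, the gene of the cell cycle inhibitor p16, stood at 23.4, 13.8 and 19.1 in GRANTA-519. Means of 22.9, 23.7 and 20.9 in Z138, HBL-2 and REC-1 were close to it, and JEKO-1 had 437. Its difference of -1.35 passed (limma, adjusted p = 1e-05) but not without JEKO-1 (-0.27, adjusted p = 0.37). MTAP, the neighbour of CDKN2A and an enzyme of methionine salvage, stood at 2.03, 0 and 0 in GRANTA-519 and at 62.7 to 142 (median 123) in the other lines. The nearest line was at least 4.81-fold higher, and 3 of 4 other probe sets had the same sign. KLHL9, an adaptor of a ubiquitin ligase, stood at 8.12, 13.8 and 1.01 against 133 to 304 (median 239). IFT74 was lower by -1.53 ± 0.173 in PBS but not specific in the isotype arm. On the same stretch DENND4C stood at 389, 390 and 383 against 80.6 to 246 (median 95), and FOCAD and HAUS6 were higher by 0.94 and 0.63. In all, of 15 tested genes of 9p21 7 were higher and 6 lower (all genes: 30.8% and 28.9%), 4 and 3 of them specific (26.7% and 20%, background 9.69% and 9.21%).

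G1 regulators were 8 higher, 9 lower and 3 not called of 20 (all genes: 30.8% and 28.9%), with 1 specific gene in each direction (5%, background 9.69% and 9.21%). CDK6, a kinase partner of cyclin D, stood at 576, 589 and 587 in GRANTA-519 and at 1.93 to 50.2 (median 14.9) elsewhere, 12.1-fold above the nearest line. Its 5 other probe sets had the same sign, and the 12 arrays of the other arms held 531 to 692. CDKN1C, the inhibitor p57, stood at 9.14, 8.88 and 11.1 against 32.9 to 993 (median 104). GRANTA-519 overlapped no other line in either gene. Around CCND1 on 11q13 3 of 16 genes were higher and 3 lower (all genes: 30.8% and 28.9%). CTTN, an actin-binding protein, was specific at 121, 117 and 136 against 6.82 to 65.3 (median 11.7), though not in the isotype arm.

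Around ATM on 11q22-q23 18 of 27 genes were higher and 3 lower (all genes: 30.8% and 28.9%), with a median of 0.49, 6 of them specific and higher (22.2%, background 9.69%). ATM, the DNA damage kinase, stood at 201, 257 and 253 among the other lines at 56.9 to 396 (median 294). Its difference was 0.14 ± 0.0784 (limma, adjusted p = 0.14), and it passed without GRANTA-519 replicate 1 (0.26, adjusted p = 0.011) and without HBL-2, JEKO-1 or REC-1 (0.25 to 0.42). Z138, with a mean of 60.8, carried the positive value: without it the difference turned to -0.46 (adjusted p = 0.00015). The inflammatory caspase gene CASP1 stood at 1338, 1371 and 1269 against 54.9 to 597 (median 354), and its neighbour CASP4 at 431, 408 and 376 against 11.4 to 243 (median 152). The RNase gene ZC3H12C stood at 290, 285 and 308 against 0 to 82.5 (median 19.9). These 3 genes did not overlap the other lines.

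Genes of the Notch pathway were more often lower than higher in GRANTA-519. Of 18 genes 5 were higher, 10 lower and 3 not called, with a median of -0.65 (all genes: 30.8% higher and 28.9% lower), and 4 were specific and lower (22.2%, background 9.21%). The receptor NOTCH2 stood at 8.12, 6.9 and 8.05 in GRANTA-519 and at 805 to 1744 (median 1102) in the other lines, at least 53.8-fold below the nearest line with 3 of 3 other probe sets of the same sign (-7.19 ± 0.0564; limma, adjusted p = 1.5e-21). The ligand JAG1 stood at 47.7, 68 and 76.5 against 121 to 502 (median 280). DTX1, a known Notch target and modulator, stood at 18.3, 8.88 and 16.1 against 93.8 to 1035 (median 494). No array of GRANTA-519 reached the other lines in these genes. The corepressor SPEN was lower by -1.04 ± 0.0457. The coactivator MAML2 was higher by 2.64 ± 0.136, though not specific in the isotype arm.

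MYC, a transcription factor of growth and a Notch target in lymphocytes, stood at 793, 759 and 759 in GRANTA-519 and at 1611 to 4864 (median 2367) elsewhere, 2.36-fold below the nearest line (-1.75 ± 0.0517; limma, adjusted p = 5.4e-14). Of 16 genes of the MYC and ribosome biogenesis list 3 were higher, 7 lower and 6 not called (all genes: 30.8% and 28.9%), and the median of -0.09 was near that of all genes. CAD, an enzyme of pyrimidine synthesis, was specific in PBS at -0.55 ± 0.0696 but not in the isotype arm. Of 25 genes of G2/M and mitosis 13 were higher and 3 lower (all genes: 30.8% and 28.9%), with a median of 0.15. HMMR, a spindle protein, stood at 2111, 2255 and 1962 against 935 to 1321 (median 1123), and the kinase CDK1 at 3233, 4095 and 4348 against 2316 to 3168 (median 2646). Both were without overlap, and 2 of 3 other probe sets of MKI67 opposed its difference of 0.70.

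Of 27 factors of B and plasma cell differentiation 12 were higher and 10 lower (all genes: 30.8% and 28.9%), 6 and 4 of them specific (22.2% and 14.8%, background 9.69% and 9.21%). CD27, a marker of memory B cells, stood at 1033, 819 and 846 against 9.47 to 159 (median 23.8), 6.37-fold above the nearest line. SDC1, the plasma cell marker CD138, stood at 284, 294 and 275 against 7.86 to 112 (median 27.6). Both were without overlap. MYBL1 and XBP1 were higher by 3.26 and 1.43, but the other probe set of each had the opposite sign, and the mean of those of XBP1 was -0.39. Of 24 genes of B cell receptor signalling 8 were higher and 13 lower (all genes: 30.8% and 28.9%), with a median of -0.28. FCGR2B, the inhibitory Fc receptor, stood at 237, 248 and 223 against 309 to 874 (median 632), and its near-identical copy FCGR2C was lower too, so that their reads cannot be told apart with certainty. IGKC, the kappa light chain gene, stood at 0, 19.7 and 14.1 in GRANTA-519, low as in HBL-2 with a mean of 9.45, against 4136 in JEKO-1 and 4751 in REC-1. The sign of 3 of its 5 other probe sets was the same.

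Among early B cell genes, 3 higher and 6 lower of 14 (all genes: 30.8% and 28.9%), DNTT stood out above each line and LEF1 below. DNTT, the terminal transferase of V(D)J joining, stood at 175, 146 and 163 against 14.2 to 32.8 (median 24), and LEF1, a Wnt effector, at 41.6, 41.4 and 41.3 against 81.9 to 1207 (median 242). Of 18 complement regulators and Fc receptors 8 were higher and 5 lower, 6 and 3 specific (33.3% and 16.7%, background 9.69% and 9.21%). FCER2 among these had passed the filter only through GRANTA-519. The specific members CR1, CR2, FCMR, FCGR2B and FCGR2C all lie on chromosome 1, and neighbouring genes are not independent. The complement receptor CR1 stood at 75.1, 81.8 and 64.4 against 9.47 to 29.9 (median 16.6). CD46 and CD55, which protect cells from complement, were above each line by smaller steps of 0.76 and 0.85. Cancer-testis antigens were 0 higher and 11 lower of 15 (28.9% of all genes lower), with a median of -1.998 and none below every other line. SSX1, 1 of them, stood at 2.03, 1.97 and 3.02, against means of 4.12 in Z138, 17 in REC-1, 545 in HBL-2 and 1882 in JEKO-1. MAGEB2 had a mean of 12.3 in GRANTA-519, near 8.97 in Z138 and 11.4 in REC-1, against 1388 in HBL-2 and 1445 in JEKO-1. MAGEA4 was high in HBL-2 alone (3710). None of the 15 antigens had passed the filter only through GRANTA-519. For members near 0 in GRANTA-519 another line had let them in, so a lower value was built in. With no filter 0 of 25 antigens were higher and 10 lower, with a median of -1, where 3854 of all 19775 genes were lower.

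In each list of markers of other cell types most members had a GRANTA-519 mean below the filter level. Of 16 T and NK cell markers 4 had a mean above the filter level, and their summed intensity was 607 to 701 against 148 to 396 in the other lines. CD28, a T cell costimulatory receptor, made up most of it, at 556, 509 and 485 against 0 to 19.5 (median 7.77), and the defining markers CD3D, CD3E and CD3G had means of 2.66, 4.95 and 6.39. Of 12 myeloid markers 4 were above the level, and the sum was 247 to 269 against 128 to 202. Here MNDA, a nuclear protein also known from some B cells, stood at 83.3, 80.9 and 80.5 against at most 12, and CD14 and LYZ had means of 2.31 and 6.37. The erythroid sum was 116 to 145 against 127 to 182. Of 14 epithelial and fibroblast markers 6 were above the level, and the sum of 2605 to 3028 lay within 552 to 3714 in the other lines. SPARC, a matrix protein, stood at 128, 117 and 116 against at most 17.9. EPCAM and KRT19 were among the members below the level, with means of 7.71 and 1.01. MNDA and SPARC passed the filter only through GRANTA-519. What part such transcripts had in other results was not tested.

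Line-specific genes were spread unevenly over the chromosomes. Of 1334 tested genes on chromosome 1, 241 were specific and lower (18.1%, background 9.21%) and 96 higher. Chromosomes 3, 20 and 18 followed with 17%, 16.9% and 16.4% lower. Specific higher genes were most frequent on chromosomes 5 (15.6%, background 9.69%), 14 (15.4%), 18 (15.3%) and 6 (15.2%). Chromosome 18 was thus high in both directions, with 29 higher and 31 lower of 189. Along each chromosome, windows of 25 neighbouring tested genes were described after the data were seen. The window with the most lower genes ran from LY9 to UAP1 on chromosome 1 and held 17 specific lower genes of 25, with a median of -0.98, and a window from JPT1 to SPHK1 on chromosome 17 held 14. For higher genes, the window from EPG5 to SMAD4 on chromosome 18 held 12 of 25, with a median of 0.85. Neighbouring genes are not independent, and these runs were not tested.

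**Figure D5:**
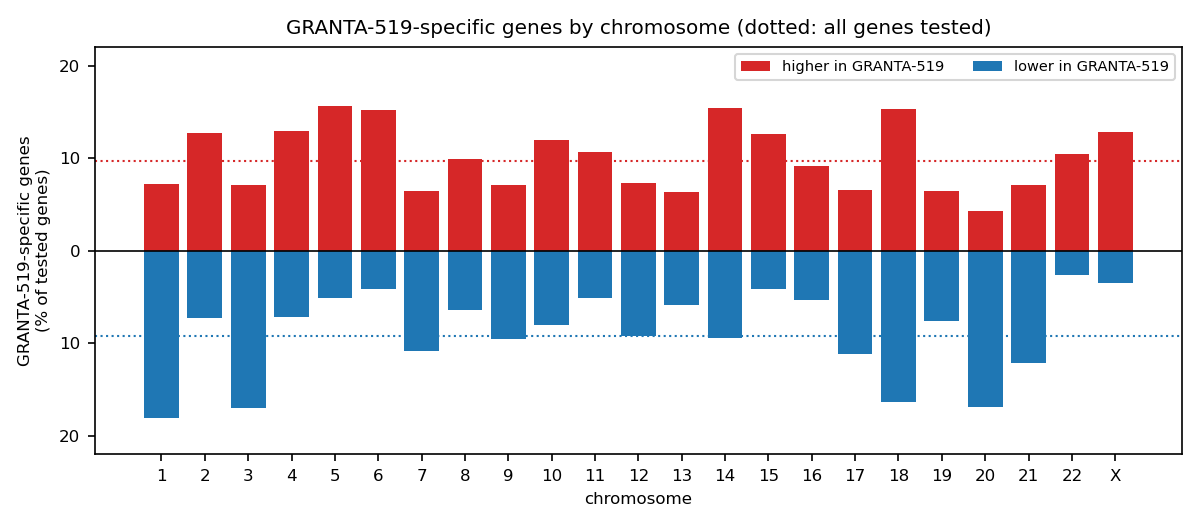
Percent of the tested genes of each chromosome that were specific to GRANTA-519, higher in red above 0 and lower in blue below 0, with dotted lines at the shares over all genes. Lower genes reach 18.1% on chromosome 1 and higher genes 15.6% on chromosome 5.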

How the data were processed

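Total RNA of 5 mantle cell lymphoma lines was labelled as biotinylated cRNA and hybridised to Affymetrix 3' expression arrays, per the labels' protocols. The authors deposited linear intensity values. MAS5 is named by the submitters' processing notes, with version and settings not given in the sources read here. Controls (62 of 54675 probe sets) were dropped, and the 41091 remaining probe sets with 1 gene symbol in the platform annotation covered 19775 genes. A floor of 1 was applied before taking log2, and arrays were not normalized again. The filter kept probe sets whose mean log2 in the PBS arrays of any line exceeded the median probe set (3.94, intensity 15.4). The brightest probe set represented its gene, giving 13456 genes, 323 of them through GRANTA-519 alone.

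limma 3.58.1 (R 4.3.3) fitted 5 group means to the 15 PBS arrays (10 residual degrees of freedom, median prior 5.92; trend and robust prior), two-sided, Benjamini-Hochberg over all genes at 0.05. Other arms were fitted separately on the genes and probe sets kept in the PBS arrays, and the difference between arms by interaction. Differences are log2, GRANTA-519 minus the mean of the other lines, ± SE (3 arrays against 12), and the number of arrays limits the precision. Tested on simulated data for this comparison (13456 genes), 62% of 100 genes changed by log2 1 and 82% of 100 changed by 2 were called specific, and 0 unchanged genes. Against the mean of the other lines 71% and 88% of the changed genes were called, and 9 unchanged genes. The simulated other lines had equal means for each gene, unlike the real lines.

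Named were MS4A1, CCND1 and SOX11; the 14 highest and 14 lowest specific genes by smallest difference to a single line, without overlap and with the bright side at 100 or more; up to 5 specific, else called, members of each list by size; and BCL2, CDKN2A and ATM for their regions. Outside this rule, and chosen after their values were seen, are EBI3, TNFAIP2, CCL4, RELB, NFKB2, RUNX3, IRF4, CXCR4, CXCR5, FOCAD, HAUS6, CD46, CD55, CD3E, CD14, LYZ and KRT19. The members and lists were chosen with earlier results of these data known. Replicate numbers were not used as pairs in the main fit. After centring each line, same-number arrays of different lines correlated at -0.01 to 0.11 (median 0.04, over 0.1 in 1 of 30 pairs). Different-number arrays correlated at -0.09 to 0.06 (median -0.02, 60 pairs). A weak effect shared by arrays of the same number was thus present, and a fit with a replicate block is given below. Alternatives were another floor, quantile normalization, no filter, mean of probe sets, all 75 arrays, a plain prior, a replicate block, each array or line left out, and other definitions. Promoters come from RefSeq. The results of 1 list are not reported here.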

Additional observations from a re-analysis of the deposited data

Results flagged for a closer look

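MEST and NOTCH2 stood out because the difference between GRANTA-519 and the other lines was not the same in the isotype arm as in the PBS arm by limma's interaction test. For MEST the difference was -8.63 in PBS and -6.44 with isotype, a change of 2.19 (adjusted p = 0.0067), and the GRANTA-519 mean went from 2.36 to 8.19. For NOTCH2 it was -7.19 and -6.58, a change of 0.61 (adjusted p = 0.028), and the GRANTA-519 mean went from 7.69 to 11.5. All of these GRANTA-519 means are under the filter level of 15.4.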

How the results depend on the processing

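Asking for a log2 difference of at least 1 as well left 1464 higher and 1449 lower genes against the mean of the other lines, and 733 and 714 specific ones. Calling a gene specific where the GRANTA-519 mean was merely the highest or lowest gave 2567 and 2552. Under the other floor, quantile normalization, no filter, the mean of probe sets, all 75 arrays and the plain prior, the specific counts stayed between 1097 and 1539 higher and between 1135 and 1315 lower. Leaving out 1 array gave 3701 to 4177 higher and 3448 to 3883 lower genes, and 1111 to 1298 and 1174 to 1239 specific ones. Leaving out 1 line, so that a gene had 3 lines to pass, gave 1635 to 1684 and 1502 to 1652 specific. Specific higher members then went from 3 to 8 in the interferon list (without HBL-2), from 6 to 11 around BCL2 (without Z138), from 6 to 10 around ATM (without JEKO-1) and from 6 to 10 in costimulation (without REC-1). With a replicate block the counts were 4237 and 4010, and 1369 and 1328 specific, and no call of the 170 named genes changed; in the isotype arm it gave 1098 and 1042.

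Some named genes changed sign. S100A6 went to -0.39 with values under 16 set to 16 and to -1.19 without REC-1, EPHB1 to -0.58 with no filter, and CPT1A to 0.20, IGLV1-44 to -0.02 and XBP1 to -0.39 with the mean of probe sets. DHCR7 went to -0.089 without Z138, MAGEA4 to 0.15 without HBL-2 and HLA-DRA to -0.13 without REC-1. CCND1, SOX11 and ATM, not called against all 4 lines, were called lower at -0.14 and -0.45 without HBL-2 and -0.46 without Z138. The cause was not tested. Without 1 array, 10 of 2550 values for named genes lost the call, 3 gained it and 0 changed sign. Low signal limits what can be said of genes under intensity 15.4, where a fold is only a bound.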
